A study of Mus musculus with 38 samples.

Results

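Papillary thyroid carcinomas (PTC) were set against borderline lesions (BL), which are thyroids with single altered nuclei or separate altered foci that did not amount to carcinoma. The comparison used 20 of the 38 mice of the series, chosen by the lesion named in the sample labels. The 10 PTC mice were 8 females and 2 males of 6 to 21 months (median 11), and the 10 BL mice were 8 females and 2 males of 4 to 21 months (median 10.5). All 20 were FVB/N mice with a transgene in which a bovine thyroglobulin promoter drives human *BRAF*V600E cDNA, and all were scored *BRAF*(+), so the transgene was common to both groups. The promoter is active in thyroid follicular cells, and the other cells of the gland do not carry an induced oncogene by design. The mice of 4 to 8 months, 3 PTC and 1 BL, came from transgenic line tg2 and the older ones from line tg3 except 1 BL mouse. The cohort description and the sample labels differ in how they divide the older mice by age, the ages used here are those of the labels, and line, which the labels do not give, was not tested. The lesion was read in tissue of the same gland that was not used for RNA, so that each array and its diagnosis come from neighbouring tissue. A set of 5 *BRAF*(-) asymptomatic thyroids (AT), from 3 females and 2 males of 4 to 12 months, gave the level without the oncogene. Each thyroid was measured on 1 GeneChip Mouse Gene 1.0 ST array, and all levels below are RMA signals on the log2 scale, on which a difference of 1 is a factor of 2.

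BRAFV600E is a kinase that keeps the MEK and ERK kinases active without a growth factor. In thyroid follicular cells this pathway switches on ETS transcription factors, cyclin D1 and its own phosphatase and Sprouty-type inhibitors, and it lowers the iodide transporter and other genes of hormone synthesis. Papillary carcinoma is the thyroid cancer that most often carries this mutation, and a fibrous stroma and lymphocytes commonly lie around its follicular cells.

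Array medians lay within 6.00 to 6.15, correlations between the 20 arrays were 0.95 to 0.99, and the number of arrays limits the precision. Thyroid identity was plain in every mouse. *Tg*, the thyroglobulin gene, lay at 13.48 to 13.66 in PTC and at 13.30 to 13.73 in BL, and *Pax8*, a transcription factor of the thyroid lineage, at 11.00 to 11.52 in PTC and 11.13 to 11.76 in BL. Neighbouring tissues were also present and differed between mice of the same group. The parathyroid hormone gene *Pth* was at 9.77 to 12.77 in 4 PTC mice and at 11.68 and 12.56 in 2 BL mice, against at most 3.37 in the other PTC mice and at most 4.10 in the other BL mice. The mean of the 20 skeletal muscle genes listed exceeded 8 in 4 PTC mice (M_358, M_359, M_348 and M_1002) and in 2 BL mice (M_527 and M_530), and mouse M_530 also held squamous epithelial transcripts, with the basal keratin gene *Krt5* at 11.19.

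The question was whether the transcriptome separates carcinoma from its putative precursor lesion, and in these 20 glands no probe set did so at the chosen threshold. After the filter for flat probe sets, 4388 were tested with limma in a model of all 38 mice with sex, and 0 (0%) had an adjusted p under 0.05. The smallest adjusted p was 0.897. At an unadjusted p under 0.05 there were 150 (3.42% of those tested), of which 86 (1.96%) were higher and 64 (1.46%) lower in PTC. For 0 probe sets did the PTC and BL mice fail to overlap. In the same model and at the same threshold, 1732 probe sets (39.5%) differed between PTC and *BRAF*(-) AT and 1431 (32.6%) between BL and *BRAF*(-) AT, 2 comparisons that share the AT mice.

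The intervals bound the differences that remain possible. The 95% confidence interval of the PTC minus BL difference lay wholly within a 2-fold change for 4031 probe sets (91.9%) and within a 1.5-fold change for 1770 (40.3%), and its median half-width was 0.46. The differences themselves ran from -1.91 to 1.45 with a median of 0.06 over the probe sets tested and of 0.00014 over all 19938 named genes. Only 21 of the 4388 exceeded 1 in size. Since the tissue was bulk RNA, fewer cells of a type and less RNA per cell cannot be told apart in any of these differences.

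Profiles differed as much within a lesion class as between the classes. The Euclidean distance between 2 mice over the tested probe sets had a median of 55.2 among PTC mice (45 pairs), 57.0 between PTC and BL mice (100 pairs) and 60.4 among BL mice (45 pairs). The most similar profile belonged to a PTC mouse for 4 PTC mice and to a BL mouse for the other 6, and it belonged to a PTC mouse for 3 BL mice and to a BL mouse for the other 7. Lesion class accounted for a median of 2.93% of a probe set's variance over the 20 mice and sex for 5.63%. The share that random labels would give was not computed. The males were of 4, 6, 7 and 11 months, so the share for sex was not separated from age.

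The first principal component, with 27.4% of the variance, divided both classes alike. It had positive scores in 4 PTC and 5 BL mice, among them all 4 males, and negative scores in 6 PTC and 5 BL mice. The mean score was -5.41 ± 19.03 in PTC and 5.41 ± 23.40 in BL (SD, n = 10 each), and a two-sided permutation test gave p = 0.265 (0.532 after adjustment over the first 3 components). For components 2 and 3 the adjusted p by the same permutation test was 0.532 and 0.709.

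**Figure D1:**
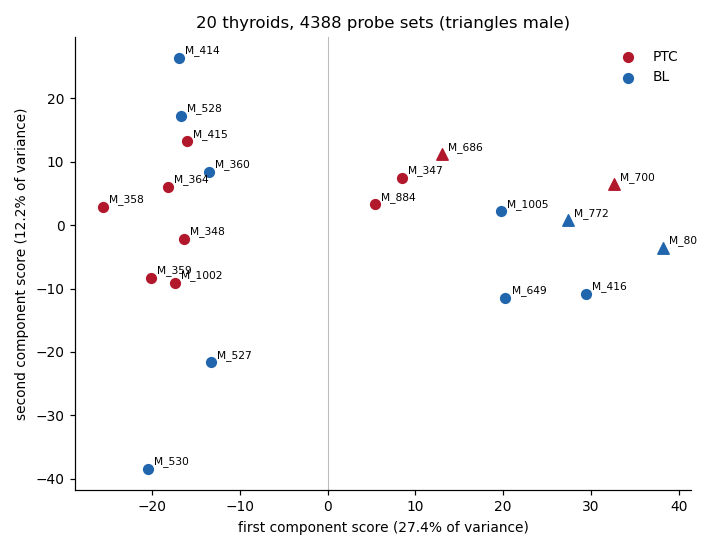
Scores of the 20 thyroids on the first component (x axis, 27.4% of the variance) and the second (y axis, 12.2%) over the 4388 tested probe sets, with PTC in red, BL in blue, circles for females and triangles for males. PTC and BL mice lie on both sides of 0 on the x axis, and BL mice M_530 and M_527, which held muscle, lie lowest on the y axis.

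Although none passed the threshold, the genes with the smallest unadjusted p show the size of what was seen. *Styk1* (probe set 10548573), a kinase-like membrane protein, was at 6.47 to 7.16 (median 6.84) in PTC and at 5.77 to 6.84 (median 6.37) in BL. It had the smallest unadjusted p among the genes higher in PTC, with a difference of 0.50 (95% CI 0.16 to 0.84, limma adjusted p = 0.897). A total of 4 PTC mice lay above every BL mouse and 7 BL mice lay below every PTC mouse. *Eda2r*, a receptor of the tumour necrosis factor family, had a lowest, median and highest signal of 6.14, 6.57 and 7.00 in PTC against 5.58, 6.17 and 6.42 in BL, with 6 PTC mice above every BL mouse. *Spaar*, which encodes a small peptide that acts on mTORC1, also had 6 PTC mice above every BL mouse and a difference of 0.47. The other genes that the naming rule gave on this side were *Vcan* and *Nox4*, described with the matrix, *Pappa2*, a protease that cleaves insulin-like growth factor binding proteins (0.62), *Slc25a30*, a mitochondrial carrier (0.56), *4921509C19Rik* (0.78), *Neto2*, an auxiliary subunit of kainate receptors (0.61), and *Dusp2*, a phosphatase of MAP kinases (0.50). In *BRAF*(-) AT, *Styk1* lay at 5.13 to 5.46, *Spaar* at 4.86 to 5.35 and *Slc25a30* at 7.95 to 8.21, below every PTC and every BL mouse. The difference was 0.26 for *Styk1* and 0.33 for *Slc25a30* with age and sex combined as a block. Such a block compares PTC with BL only within classes of equal age and sex that held both lesions. These were 3 classes of females, with 3 PTC and 1 BL, 1 PTC and 2 BL, and 1 PTC and 1 BL mice.

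Among the genes lower in PTC, the smallest unadjusted p belonged to *Sec14l3* and to *Mzb1*, which are described below with the airway and plasma cell genes. *Cldn6*, a claudin of tight junctions, had a lowest, median and highest signal of 7.35, 7.78 and 8.19 in PTC and 7.25, 8.37 and 8.92 in BL, a difference of -0.48 (95% CI -0.88 to -0.08), and 6 BL mice lay above every PTC mouse. *Gfra1*, a co-receptor for the ligand GDNF, was at 6.62, 6.97 and 7.68 in PTC and at 6.79, 7.60 and 8.22 in BL, with a difference of -0.44 and 4 BL mice above every PTC mouse. In *BRAF*(-) AT, *Cldn6* was at 8.56 to 9.33 and *Gfra1* at 8.08 to 8.51, and all 10 PTC mice lay below the lowest AT mouse for both genes, as did 7 BL mice for *Cldn6* and 8 for *Gfra1*.

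The transgene and the output of its pathway were slightly higher in PTC, within the spread between mice. *Braf* (a probe set that may detect both the mouse and the human transcript) averaged 9.87 ± 0.24 in PTC and 9.70 ± 0.33 in BL (SD, n = 10 each), a difference of 0.17 with p = 0.208 in a two-sided permutation test. In limma fits the difference was 0.06 without the 6 mice rich in muscle and 0.29 with age and sex as a block. All 10 PTC mice and 9 BL mice lay above the highest *BRAF*(-) AT, whose mean was 9.13 ± 0.24 (SD, n = 5). The ETS factor *Etv1* lay at 9.14 to 9.89 (median 9.42) in PTC, at 8.16 to 9.77 (median 9.25) in BL and at 7.38 to 7.79 in *BRAF*(-) AT. Its PTC minus BL difference was 0.28 (95% CI -0.09 to 0.65), and both classes were above all AT mice.

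Of the 20 genes listed as MAPK output, 19 had a difference above 0 and 1 below, with a median of 0.21, against 50.1% above 0 and a median of 0.00014 over all named genes. Members of this list and of those below were read in the same mice, so their signs are not independent observations. The MAPK list was measured whole, 11 members passed the flat filter and none passed the test in either direction, at the adjusted threshold or at an unadjusted p under 0.05. Its members included the ERK phosphatase *Dusp6* (0.22), the inhibitor *Spred1* (0.24), cyclin D1 (*Ccnd1*, 0.26) and the immediate early gene *Egr1* (0.43, 95% CI -0.03 to 0.88). *Dusp4*, another ERK phosphatase, did not pass the flat filter and so was not tested, and it had a difference of 0.43 (95% CI 0.12 to 0.74). The mean signal over the list was 7.76 to 8.56 in PTC and 7.54 to 8.49 in BL, and the PTC range covered most of the BL range. BL mice M_1005, M_416, M_649, M_772 and M_80, those with positive scores on the first component, lay at 7.54 to 8.07. The other BL mice lay at 8.09 to 8.49.

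Genes far above their *BRAF*(-) AT level differed between the lesions by less than the spread between mice. *Sftpb*, which encodes surfactant protein B, was at 12.21 to 12.97 (median 12.66) in PTC, 11.19 to 12.79 (median 12.54) in BL and 6.05 to 6.40 in *BRAF*(-) AT. Its difference between PTC and BL was 0.35 (95% CI -0.10 to 0.80), while PTC exceeded AT by 6.37 and BL exceeded AT by 6.02. *Chil1*, a chitinase-like secreted glycoprotein, and *Lcn2*, lipocalin 2, differed by 0.19 and 0.39 between PTC and BL. The 18 genes that the study selected from its mouse and human data had a median difference of 0.23. Of these, 16 were above 0 and 2 below, and none passed the test among the 16 that passed the filter. The study reported *Aacs*, *Mmd*, *Iqgap2* and *Dio1* as lower in mouse PTC than in *BRAF*(-) healthy thyroids. The count and the median therefore mix genes raised and genes lowered with the oncogene. The list was chosen on mice of this series, without the PTC and BL mice in the selection, and is not independent evidence of a direction. The phosphate transporter *Slc34a2* had the largest difference among them (0.49, 95% CI -0.06 to 1.05), and *Dio1*, the deiodinase that forms active thyroid hormone, the lowest (-0.33, 95% CI -1.10 to 0.43). With age and sex as a block the differences were 0.25 for *Slc34a2* and 0.07 for *Lcn2*, and without the mice rich in muscle that of *Slc34a2* was 0.28.

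Among growth factors and their receptors the largest difference was that of an ErbB ligand. *Ereg*, which encodes epiregulin, lay at 6.92 to 9.14 (median 8.02) in PTC, 5.72 to 8.39 (median 7.58) in BL and 4.77 to 5.20 in *BRAF*(-) AT. The PTC minus BL difference was 0.75 (95% CI 0.07 to 1.43, unadjusted p = 0.033, limma adjusted p = 0.897), and BL mice M_649 and M_416 were the lowest of the 20. The difference was 1.17 with age and sex as a block. *Hbegf*, heparin-binding EGF-like growth factor, differed by 0.43 and the receptor *Met* by 0.25. *Fgfr3*, a fibroblast growth factor receptor, went the other way, with a difference of -0.38. Of 23 measured receptor kinases and ligands 10 passed the filter, 0 passed the test and the median was 0.04.

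**Figure D2:**
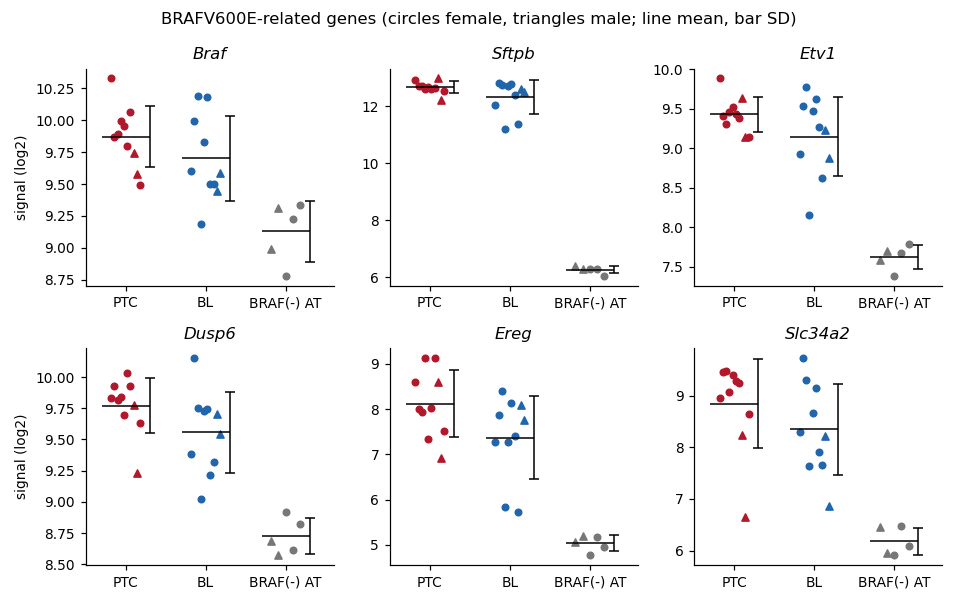
Signal (log2, y axes) of *Braf*, *Sftpb*, *Etv1*, *Dusp6*, *Ereg* and *Slc34a2* in each PTC, BL and *BRAF*(-) AT mouse, with the group mean as a line and the SD as a bar. PTC and BL overlap in all 6 panels, and the *Sftpb*, *Etv1* and *Ereg* signals of both lesions lie above every AT mouse.

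Genes of iodide handling and hormone synthesis had lower values in PTC, within the spread between mice. *Slc5a5*, the sodium iodide symporter, was at 7.87 to 10.71 (median 9.60) in PTC, at 8.65 to 11.26 (median 10.46) in BL and at 9.99 to 11.74 in *BRAF*(-) AT. The difference was -0.66 (95% CI -1.30 to -0.02, unadjusted p = 0.044, limma adjusted p = 0.897). *Duox2*, which makes the hydrogen peroxide used to couple iodine to thyroglobulin, had 7.01, 7.67 and 8.06 as lowest, median and highest signal in PTC and 7.16, 8.06 and 8.70 in BL, a difference of -0.38. It was below the lowest AT mouse (8.44) in all 10 PTC mice.

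*Dio1* showed the shape of the overlap. PTC mice lay at 7.71 to 10.65 (median 8.99), while 5 BL mice lay at 7.27 to 8.74 and the other 5 at 10.63 to 11.05. The PTC range spanned the gap between these 2 sets of BL mice and overlapped both. PTC mice M_1002 (7.71) and M_415 (8.60) lay within the range of the low set. In *BRAF*(-) AT the gene was at 10.90 to 11.62. The low BL mice were M_530, M_360, M_414, M_528 and M_527, which are also the BL mice with negative scores on the first component. The thyrotropin receptor *Tshr* (-0.29) and the monocarboxylate transporter *Slc5a8* (-0.41, 95% CI -1.06 to 0.25) had differences of the same sign.

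The lineage factors and thyroglobulin had narrow intervals around 0. *Tg* had a difference of -0.03 (95% CI -0.11 to 0.06), *Nkx2-1* of -0.01 (95% CI -0.23 to 0.21) and *Pax8* of -0.11 (95% CI -0.29 to 0.07). These 3 genes did not pass the flat filter. The *Tg* signal lay close to the highest in the data (14.18), and whether differences are compressed at that level was not tested. Over the 15 measured members of the thyroid list, 4 had a difference above 0 and 11 below, with a median of -0.05. Of the 6 that passed the filter, none was past the adjusted threshold and *Slc5a5* alone had an unadjusted p under 0.05. With the mean levels of muscle, adipocyte and brown adipocyte genes as covariates the *Slc5a5* difference was -0.58 and that of *Dio1* was -0.16. With age and sex as a block the differences were -1.0004 for *Slc5a5*, -0.58 for *Duox2*, -0.92 for *Dio1*, -0.78 for *Slc5a8* and -0.58 for *Tshr*. Within the classes of 11, 13 and 21 months that of *Dio1* was 0.70, -0.99 and -3.27 and that of *Tshr* 0.25, -0.53 and -1.89. For *Duox2* it was -0.07, -0.48 and -1.48 and for *Slc5a8* -0.01, -1.01 and -1.63. The largest values came from the class of 21 months, with 1 mouse of each lesion.

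Extracellular matrix genes had higher values in PTC, within the spread between mice. All 18 measured matrix glycoproteins had a difference above 0 (median 0.24), as did 17 of 18 collagens (median 0.15). The mean over the matrix glycoproteins was 8.48 to 8.85 in BL mice M_1005, M_416, M_649, M_772 and M_80. It was 9.38 to 9.84 in the other BL mice and 8.53 to 9.99 in PTC mice, so the BL mice were not alike. Of the 10 matrix glycoproteins and 7 collagens that passed the filter, none was past the adjusted threshold, and 1 in each list, *Vcan* and *Col5a2*, was higher at an unadjusted p under 0.05. *Vcan*, which encodes the proteoglycan versican, was at 7.76 to 9.24 (median 8.61) in PTC, at 6.75 to 8.59 (median 8.14) in BL and at 6.47 to 7.25 in *BRAF*(-) AT. The difference was 0.58 (95% CI 0.12 to 1.04, limma adjusted p = 0.897), with 5 PTC mice above every BL mouse. *Nox4*, an NADPH oxidase that forms hydrogen peroxide, had lowest, median and highest signals of 6.63, 7.40 and 8.16 in PTC and 5.85, 6.81 and 7.77 in BL, a difference of 0.57.

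*Postn*, periostin, differed by 0.52 (95% CI -0.02 to 1.06), *Thbs2*, a thrombospondin, by 0.47, the cross-linking enzyme *Lox* by 0.51 and the fibrillar collagen gene *Col5a2* by 0.42 (95% CI 0.05 to 0.80). The protease inhibitor *Timp1* differed by 0.47 and fibronectin (*Fn1*) by 0.26. The decorin (*Dcn*) and *Sparc* genes, which are abundant products of connective tissue, had differences of 0.001 and 0.04. The 17 activated fibroblast genes had a median of 0.09.

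Genes of tendon and joint lining, a list chosen after the values had been seen, had a median difference of 0.27 over 13 genes. Of these, 7 passed the filter and 2 were higher at an unadjusted p under 0.05, against 1.96% of all probe sets tested. *Thbs4*, a thrombospondin of tendon and muscle, was at 5.54 to 10.41 (median 9.15) in PTC and at 5.55 to 10.11 (median 7.74) in BL. A total of 5 BL mice lay at 5.55 to 6.70 and the other 5 at 8.78 to 10.11, while 7 PTC mice lay at 7.78 or above. The difference was 0.82 (95% CI -0.32 to 1.96). Fibromodulin (*Fmod*) differed by 0.72 (95% CI -0.28 to 1.71) and lubricin (*Prg4*) by 0.93 (95% CI 0.04 to 1.83, unadjusted p = 0.042). The tendon transcription factors *Scx* and *Mkx* had differences of 0.11 and 0.09. Skeletal muscle genes stood on the same side, with 18 of 20 differences above 0 and list means of 5.64 to 8.77 (median 6.30) in PTC and 5.46 to 10.66 (median 5.77) in BL. Without the 4 PTC and 2 BL mice rich in muscle the differences were 0.73 for *Thbs4*, 0.87 for *Vcan*, 0.73 for *Postn*, 0.71 for *Thbs2*, 0.82 for *Timp1* and 0.58 for *Prg4*. With age and sex as a block they were 0.23 for *Vcan*, 0.05 for *Lox*, 0.40 for *Postn* and 0.35 for *Timp1*, and 1.84 for *Thbs4* and 1.59 for *Fmod*.

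Lymphocyte and plasma cell genes had lower values in PTC, although no member passed the test. The mean over the B and plasma cell list was highest in BL mice M_416 (6.65) and M_80 (6.31) and in PTC mouse M_700 (6.05). The T cell list mean was 5.46 to 6.48 in BL mice M_1005, M_416, M_649, M_772 and M_80. It was 5.07 to 5.63 in the other BL mice and 5.05 to 5.99 in PTC mice. Over the B and plasma cell list these ranges were 5.515 to 6.65, 4.95 to 5.72 and 5.00 to 6.05. All 12 measured B and plasma cell genes (median -0.29) and all 18 T cell genes (median -0.21) had a difference below 0. Over all named genes 50.1% had one above 0. Of the list members that passed the filter, 1 of 3 B and plasma cell genes and 0 of 6 T cell genes had an unadjusted p under 0.05. That gene was *Mzb1*, a chaperone of antibody-secreting cells, at 5.03 to 6.75 (median 5.74) in PTC and 5.55 to 7.39 (median 6.23) in BL, with 4 PTC mice below every BL mouse and a difference of -0.45 (95% CI -0.77 to -0.13, limma adjusted p = 0.897). The T cell median was -0.11 without the mice rich in muscle and -0.47 with age and sex as a block, and the B and plasma cell median was -0.29 and -0.24 in the same settings and between -0.35 and -0.15 over all that were tried.

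An immunoglobulin gene segment had the largest difference of all the probe sets tested. The kappa variable segment *Igkv9-120* was at 4.39 to 9.18 (median 5.83) in PTC, 4.67 to 10.75 (median 8.31) in BL and 4.30 to 8.89 in *BRAF*(-) AT. Its difference was -1.91 with a standard error of 0.75, and 5 BL mice lay above every PTC mouse. Of the 15 probe sets with a single immunoglobulin symbol, a set chosen after the values had been seen, 14 were lower and 1 higher in PTC. Of the 13 that passed the filter, 4 were lower at an unadjusted p under 0.05, against 1.46% of all probe sets tested. Such segments share sequence, so that a probe set may read several of them. *Jchain*, which joins antibody chains, lay at 4.98 to 10.60 in PTC and 4.96 to 11.08 in BL, a difference of -0.97 (95% CI -2.38 to 0.44). Without the mice rich in muscle the differences were -0.96 for *Igkv9-120* and -0.53 for *Jchain*.

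T cell receptor complex gene *Cd3g* had a difference of -0.66 (95% CI -1.53 to 0.21; -0.28 without the mice rich in muscle and -1.12 with age and sex as a block), the cytotoxic granule gene *Nkg7* of -0.47 and *Ccl19*, a chemokine that draws lymphocytes, of -0.56 (unadjusted p = 0.041). MHC class II genes had a median of -0.20 with 7 of 9 below 0. Macrophage genes pointed the other way, with a median of 0.11 and 15 of 18 above 0, and neutrophil genes lay at 4.41 to 4.71 in PTC and 4.40 to 4.72 in BL as list means. The 14 endothelial genes had a median of -0.14, and 13 were below 0. The flat filter was passed by 1 of the 14 endothelial genes and 0 of the 10 neutrophil genes. None of the members that were tested passed.

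Genes of ciliated and secretory airway cells had lower values in PTC, and some of the BL mice held the high ones. *Sec14l3*, a lipid-binding protein of airway ciliated cells, was at 4.69 to 5.91 (median 5.30) in PTC, at 4.82 to 7.61 (median 6.63) in BL and at 5.53 to 6.67 in *BRAF*(-) AT. A total of 6 BL mice lay above every PTC mouse, and the difference was -1.06 (95% CI -1.80 to -0.31, unadjusted p = 0.0065, limma adjusted p = 0.897). *Cdhr3*, a cadherin of ciliated cells, was at 4.98 to 5.42 in PTC (SD 0.13, n = 10) and at 4.89 to 6.75 in BL (SD 0.69, n = 10), a difference of -0.64, again with 6 BL mice above every PTC mouse. *Fam183b* also differed by -0.64, and *Dnah5*, a dynein heavy chain of the ciliary arm, by -0.58 without passing the flat filter. The PTC signals of *Cdhr3* were low, close to those of *Foxj1* given below as near the floor. In PTC females of 11 months *Fam183b* and *Dnah5* averaged 4.60 and 4.70. Whether the small SD of *Cdhr3* in PTC reflects so low a signal was not tested.

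Of 22 measured genes of motile cilia, a list chosen after the values had been seen, 20 had a difference below 0 (median -0.16), where 9981 of the 19938 named genes had one above 0. Of the 4 that passed the filter 3 were lower at an unadjusted p under 0.05, against 1.46% of all probe sets tested. *Foxj1*, the transcription factor that defines this cell type, was near the floor in both classes, at 4.77 to 5.08 in PTC and 4.90 to 5.28 in BL. The secreted airway protein gene *Bpifa1* lay at 6.62 to 11.25 (median 9.23) in PTC and at 6.06 to 12.63 (median 11.34) in BL, a difference of -1.54 (95% CI -2.96 to -0.13). Club cell enzyme *Cyp2f2* differed by -0.69. Blocking on age and sex gave -0.49 for *Bpifa1* and -0.24 for *Cyp2f2*, and -1.04 for *Cdhr3*. The mean over the 8 airway genes was 6.29 to 8.90 in PTC and 6.35 to 9.27 in BL, so that single mice of both classes held airway transcripts.

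**Figure D3:**
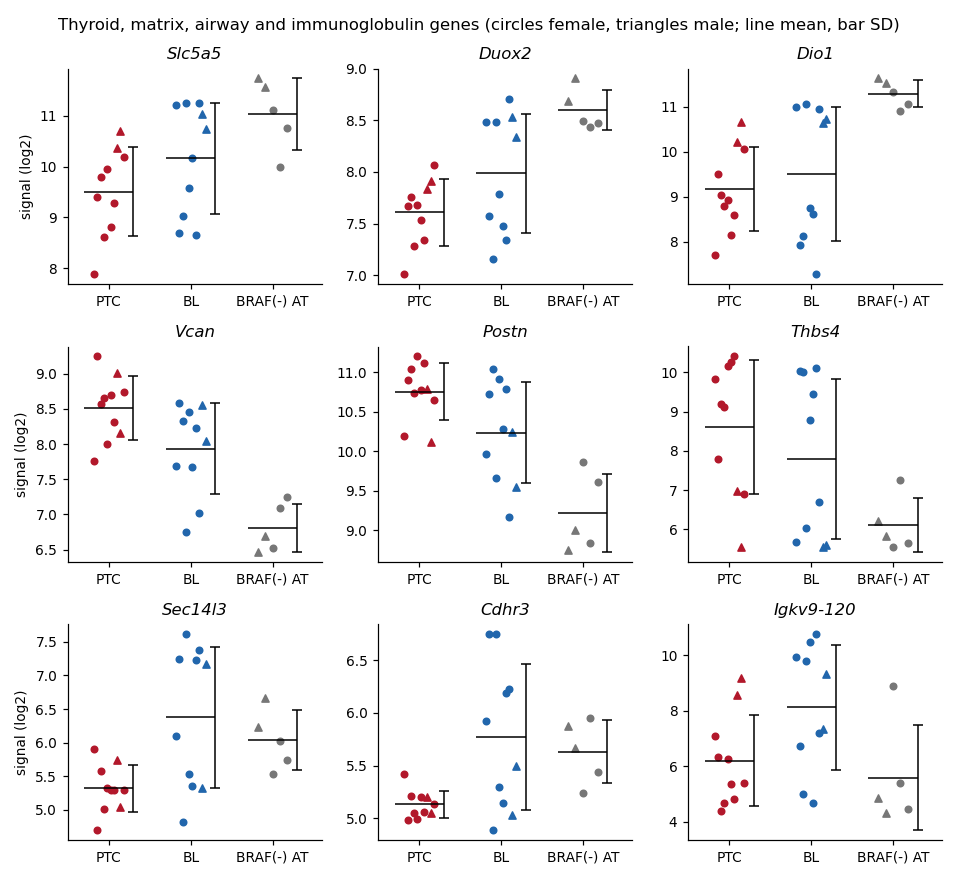
Signal (log2, y axes) of thyroid genes (*Slc5a5*, *Duox2*, *Dio1*), matrix genes (*Vcan*, *Postn*, *Thbs4*), ciliated cell genes (*Sec14l3*, *Cdhr3*) and an immunoglobulin segment (*Igkv9-120*) in each PTC, BL and *BRAF*(-) AT mouse, with the group mean as a line and the SD as a bar. *Dio1* and *Thbs4* split the BL mice into 2 sets of 5, and *Cdhr3* holds the PTC mice between 4.98 and 5.42.

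Genes of the circadian clock, a list chosen after the values had been seen, stood on both sides of 0. In this clock ARNTL and CLOCK bind E-boxes and switch on the *Per* and *Cry* repressors and the factors DBP, TEF and HLF, which act through D-boxes, whereas ROR and REV-ERB proteins act on *Arntl* and *Nfil3* through ROR elements. Promoter windows from RefSeq (build GRCm38.p6, 250 bases before to 50 after the start) were searched on both strands for CACGTG (E-box), TTATGTAA (D-box) and TAGGTCA (ROR element). An E-box and a ROR element can share the letters CA, which no match in the windows below does, and the motifs occur in 7.15%, 0.938% and 2.61% of all 32851 windows. Of the 16 clock genes with a window, 5 held the E-box, 1 the D-box and 2 the ROR element in at least 1 window, and some genes had several windows. The windows of *Arntl* and *Nfil3*, with differences above 0, and of *Ciart* and *Per3*, with differences below 0, are shown with the motif in capitals. They were chosen as the windows with a ROR element or a D-box and the one with the most E-boxes, and the windows of *Cry1*, *Per1*, *Tef* and *Bhlhe41*, with 1 E-box each, are not shown. They lie at chr7:113207261-113207560 on the plus strand (*Arntl*), and on the minus strand at chr13:52980990-52981289 (*Nfil3*), chr3:95882179-95882478 (*Ciart*) and chr4:151044616-151044915 (*Per3*).
Arntl: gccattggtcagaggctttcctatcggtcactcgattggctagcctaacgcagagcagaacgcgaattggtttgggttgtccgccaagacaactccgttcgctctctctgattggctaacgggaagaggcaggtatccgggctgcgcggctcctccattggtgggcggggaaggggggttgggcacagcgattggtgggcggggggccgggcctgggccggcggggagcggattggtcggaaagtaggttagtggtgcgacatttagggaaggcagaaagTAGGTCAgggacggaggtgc
Nfil3: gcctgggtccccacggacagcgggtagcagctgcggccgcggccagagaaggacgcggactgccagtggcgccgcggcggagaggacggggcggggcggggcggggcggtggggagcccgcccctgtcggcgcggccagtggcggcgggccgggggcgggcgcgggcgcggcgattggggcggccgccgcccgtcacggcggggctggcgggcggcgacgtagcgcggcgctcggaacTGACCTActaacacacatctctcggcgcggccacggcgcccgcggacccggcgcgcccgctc
Ciart: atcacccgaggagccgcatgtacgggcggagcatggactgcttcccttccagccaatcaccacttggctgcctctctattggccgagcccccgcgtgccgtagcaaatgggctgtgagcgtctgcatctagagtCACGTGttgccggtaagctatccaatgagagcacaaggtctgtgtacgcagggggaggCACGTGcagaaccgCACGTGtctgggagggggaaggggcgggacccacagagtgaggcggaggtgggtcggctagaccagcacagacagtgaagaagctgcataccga
Per3: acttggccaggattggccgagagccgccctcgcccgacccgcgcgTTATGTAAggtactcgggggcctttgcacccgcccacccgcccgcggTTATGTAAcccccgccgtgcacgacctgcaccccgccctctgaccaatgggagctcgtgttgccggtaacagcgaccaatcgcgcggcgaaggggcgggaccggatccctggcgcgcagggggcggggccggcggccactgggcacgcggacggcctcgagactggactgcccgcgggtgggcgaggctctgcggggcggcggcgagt
In the windows shown, *Arntl* and *Nfil3* hold 1 ROR element each, that of *Nfil3* read on the other strand, *Ciart* holds 3 E-boxes and *Per3* 2 D-boxes. *Arntl* has 2 windows, and the one not shown holds no match. A match of letters is not a measured binding site.

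*Arntl* (BMAL1) was at 6.26 to 8.18 (median 7.26) in PTC and at 5.54 to 7.57 (median 6.63) in BL, with a difference of 0.57 (95% CI 0.02 to 1.12, unadjusted p = 0.043, limma adjusted p = 0.897). *Nfil3*, a repressor of D-box genes, differed by 0.35 (95% CI 0.07 to 0.62) and *Clock* by 0.18, both untested because they did not pass the filter. On the other side, *Hlf* was at 6.11 to 7.36 (median 6.48) in PTC and 6.14 to 8.14 (median 7.06) in BL, a difference of -0.52 (95% CI -0.94 to -0.11). *Dbp* differed by -0.48, *Per2* by -0.48, *Per3* by -0.36, *Ciart* by -0.35 and *Tef* by -0.28. Of the 17 measured clock genes 7 passed the filter and 0 passed the adjusted threshold. At an unadjusted p under 0.05, 1 was higher and 3 were lower, against 1.96% and 1.46% of all probe sets tested.

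The same opposition held between mice of one class. The 10 relations tested share *Arntl* and are not independent, and the clock genes were chosen after their values in these mice had been seen. Over the 10 PTC mice the correlation of *Arntl* with *Dbp* was -0.83 (Pearson, permutation p = 0.00253, 0.00633 after adjustment over 10 relations) and -0.87 (Spearman, permutation p = 0.00205). Over the 10 BL mice it was -0.88 (Pearson, permutation p = 0.00045, adjusted 0.0015) and -0.88 (Spearman, permutation p = 0.00171). Leaving out the 2 mice with the most extreme *Arntl* gave -0.89 in PTC and -0.78 in BL. The correlations of *Arntl* with *Per2*, *Per3*, *Hlf* and *Tef* were between -0.91 and -0.61, and that with *Per3* in BL was the weakest (permutation p = 0.0621). *Arntl* was highest in PTC mice M_884 and M_348, where *Dbp* was lowest (7.45 and 7.87), and lowest in BL mouse M_649, where *Dbp* was highest (9.94).

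Most of the clock differences named above were near 0 or of the other sign with age and sex combined as a block. With that block the difference was 0.01 for *Arntl*, 0.09 for *Dbp*, 0.10 for *Per2*, 0.19 for *Per3* and 0.26 for *Ciart*. It was -0.16 for *Hlf* and 0.39 for *Nfil3*. Within the 3 classes of females that held both lesions, of 11, 13 and 21 months, the *Arntl* difference was -0.50, 0.86 and -0.37. That of *Dbp* was 0.15, -0.24 and 0.44, so neither gene kept one direction, and these values carry no test. The hour at which tissue was taken is not given in the sources used here.

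**Figure D4:**
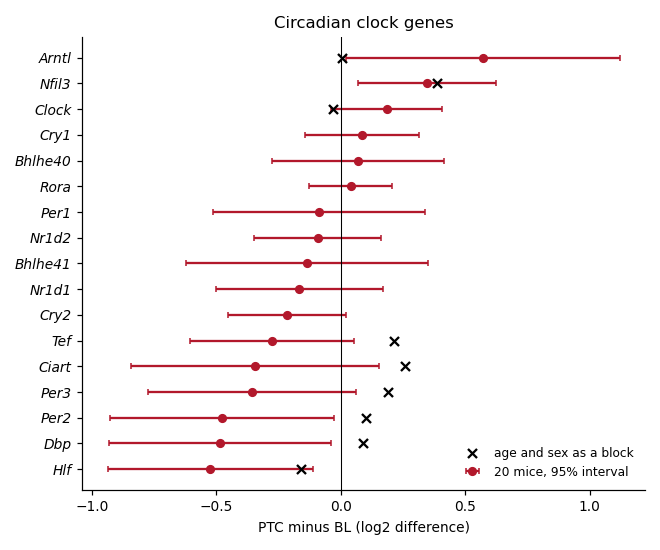
PTC minus BL difference (log2, x axis) of the 17 measured clock genes, as points with 95% confidence intervals from the fit of all mice, and as crosses with age and sex as a block for the genes named in the text. *Arntl* is at 0.57 and *Hlf* at -0.52 in the fit, and the crosses of *Dbp*, *Per2*, *Per3*, *Ciart* and *Tef* lie above 0.

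Proliferation genes had differences near 0. The 29 measured genes of mitosis and DNA replication had a median difference of 0.03, with list means of 5.94 to 6.55 in PTC and 5.77 to 6.62 in BL, and *Mki67*, the gene of the Ki-67 antigen, lay at 6.37 to 7.44 in PTC and 5.68 to 7.53 in BL. Markers used for human papillary carcinoma had a median of 0.12 over 18 genes, and keratin 19 (*Krt19*) differed by 0.39 (95% CI -0.03 to 0.81). Mitochondrial respiratory chain genes had a median of -0.08, with 23 of 26 below 0 and the lowest at -0.19. Epithelial keratins and junctions (0.06), cell cycle inhibitors (0.05), interferon response (-0.02), hypoxia and glycolysis (0.01) and fatty acid synthesis (0.03) had medians near 0. Over the 43 lists and the 3 added later, none had a member past the threshold, 7 had a median above 0.2 and 5 a median below -0.2.

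**Figure D5:**
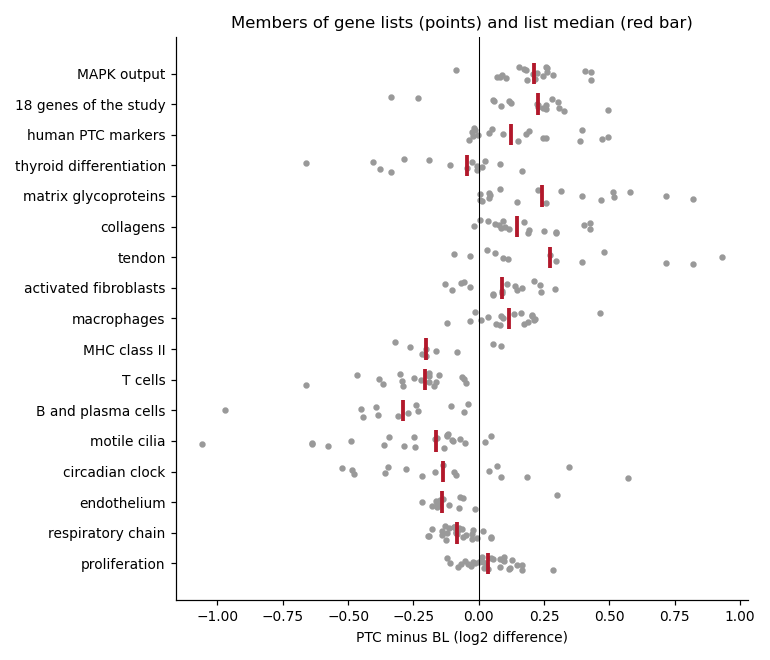
PTC minus BL difference (log2, x axis) of each measured member of 17 gene lists (grey points), with the list median as a red bar. All matrix glycoproteins lie above 0 and all T cell and B and plasma cell genes below 0. Points that did not pass the flat filter were not tested, and none of the others passed the test.

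Only 3 classes of equal age and sex held both lesions: females of 11 months (3 PTC, 1 BL), 13 months (1 PTC, 2 BL) and 21 months (1 PTC, 1 BL). Within them the PTC minus BL difference of *Sec14l3* was -2.03, -0.93 and -0.19 and that of *Igkv9-120* was -1.28, -2.58 and -2.86, in order of age. *Bpifa1* differed by -2.78, 1.34 and 0.49 and *Cyp2f2* by -1.37, -0.58 and 1.93, so that both airway genes turned direction. *Ereg* differed by 0.29, 2.01 and 1.34. *Slc5a5* differed by 0.44, -0.87 and -3.34, *Vcan* by -0.14, 0.78 and 0.06 and *Thbs4* by -0.18, 2.38 and 4.16, and these 3 genes did not keep one direction over the 3 classes. With so few mice a class, these are values without a test. The differences given with age and sex as a block rest on these classes alone.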

How the data were processed

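RNA from the thyroids of 38 separate mice was hybridised to 1 array each (GeneChip Mouse Gene 1.0 ST), and the authors normalised the arrays together by RMA and deposited log2 signals for 35556 probe sets. The table held 0 columns of samples outside the series. Groups, sex and age were taken from the sample labels. Of the probe sets, 21789 had 1 gene symbol, 1621 several and 12146 were not listed in the platform annotation used here, and only those with 1 symbol were named. Probe sets were kept if at least 20% of the mice deviated by at least 1.5-fold from the median, which left 4388 for testing. Limma 3.58.1 in R 4.3.3 fitted all 38 mice with group and sex, and p-values were adjusted by Benjamini-Hochberg at a threshold of 0.05. Genes that did not pass the filter have a difference and an interval but no test. The genes named by rule were, since none passed, the 10 with the smallest unadjusted p in each direction, together with *Braf*, the thyroid genes, the 18 genes of the study and the list members with the largest differences, and *Tef*, *Per2*, *Per3*, *Ciart*, *Clock* and *Nfil3* were named after their values were seen. Single values were compared by two-sided permutation tests with 100000 resamples (scipy 1.17.1), and figures were drawn with matplotlib 3.10.9. The model was tested on simulated data with known changes. Replicates were separate mice, and the number of arrays limits the precision. The comparison and the gene lists were chosen with earlier results of these data known, and the clock, motile cilia and tendon lists and the immunoglobulin set after their values were seen. Other filters, covariates, normalisations, subsets of mice and each mouse left out in turn were tried as alternatives. Labels state no scan or collection batch, so none was tested.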

Additional observations from a re-analysis of the deposited data

Results flagged for a closer look

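For the genes named in the report, each group of 10 mice was searched for a single value that stood apart by Dixon's criterion at the 95% level, and 13 of 152 groups held one, where chance alone gives about 1 in 20. A PTC mouse, M_700, accounted for 6 of them. It had the lowest signal of the PTC mice for *Dusp6* (9.23, next 9.63), *Ccnd1* (10.41, next 10.80), *Slc34a2* (6.66, next 8.24) and *Nkx2-1* (9.32, next 9.95), and the highest for *Slc5a8* (9.99, next 8.78) and *Igkv5-43* (5.82, next 4.36). PTC mouse M_686 had the highest *Etv4* (7.22, next 6.87).

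In PTC mouse M_1002 the airway genes *Cyp2f2* (12.00, next 10.29) and *Cdhr3* (5.42, next 5.21) were the highest of the class. In BL mouse M_530 the keratin gene *Krt5* stood at 11.19 (next 7.03) and *Tg* at 13.30 (next 13.53). BL mouse M_414 had the lowest *Bpifa1* (6.06, next 9.39) and BL mouse M_649 the lowest *Mki67* (5.68, next 6.71).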

How the results depend on the processing

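The count of probe sets past the adjusted threshold was 0 in all 15 other settings and in all 20 fits without a single mouse. The number with an unadjusted p under 0.05 was 98 to 774 in the other settings (774 without the flat filter, 98 with age and sex combined as a block) and 77 to 324 without a single mouse (324 without BL mouse M_414, 77 without M_416 and 80 without M_649). The smallest adjusted p from limma was 0.784 to 0.9997 in the other settings and 0.617 to 0.9997 without a single mouse. Without the 4 PTC and 2 BL mice rich in muscle, a setting chosen after seeing the data, 145 had an unadjusted p under 0.05. The *Braf* difference was 0.11 to 0.22 without a single mouse and 0.06 to 0.29 in the other settings. Of 76 named genes, 10 changed sign in some setting, and without a single mouse *Nkx2-1* alone did. With age and sex as a block the PTC minus BL difference was 0.0898 for *Dbp*, 0.10 for *Per2*, 0.26 for *Ciart*, 0.37 for *Krt5*, -0.27 for *Mki67* and -0.0890 for *Chil1*, and with array weights it was -0.0050 for *Chil1*. The cause was not tested. The clock list's median was 0.17 with that block, and the MHC class II median was 0.04 without the mice rich in muscle. No paired analysis was possible because mouse numbers are not shared between groups. The median half-width of the 95% intervals, 0.46, limits what 10 mice a class can show.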
